A study of Chlorocebus sabaeus with 12 samples.

Results

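The receptor transfected in this study, FXR, and the receptors it pairs with were described here through every probe named NR1H4, the gene of FXR, or RXRA, RXRB or RXRG, the genes of the retinoid X receptors. These 4 genes, of 30982 names on the array, had 5 of its 41000 probes: 1 for NR1H4, 2 for RXRA and 1 each for RXRB and RXRG. The cells were COS-1, a kidney-derived line of the African green monkey that carries SV40 large T antigen and is widely used for transient expression. They were transfected for 24 h with human FXR carrying S154D or S154A and then given CDCA (chenodeoxycholic acid) or its vehicle, 0.1% DMSO, for 24 h. The labels state the CDCA dose as 50 mM, and whether millimolar or micromolar was meant cannot be settled from the files. RNA from 12 samples was hybridised to 12 one-colour whole human genome arrays on 4 slides, 3 arrays in each of 4 groups: S154D with CDCA, S154D with DMSO, S154A with CDCA and S154A with DMSO. All 4 groups received a mutant receptor, and neither wild-type FXR nor untransfected cells were analysed here. Nothing in the labels says that replicates came from separate cultures, so p-values measure the spread between arrays, which may be technical.

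FXR is a nuclear receptor for bile acids, and CDCA is among its strongest natural ligands. It binds most of its DNA sites as a heterodimer with an RXR and induces genes of bile acid transport and feedback, such as FABP6, FGF19, OSTalpha and OSTbeta, in intestine and liver. A serine replaced by alanine cannot be phosphorylated, and aspartate at the same place carries a negative charge as a phosphate does. RXRA is the main RXR of liver, kidney and intestine, RXRB is expressed in most tissues, and RXRG is mostly found in muscle and parts of the brain.

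The probes are 60 bases long and were designed for human transcripts. Those of the transfected receptor and of the RXR that was hardly detected are shown because they stand at both ends of the signal range. No base is in capitals, since no stretch of these probes was measured apart from the rest.
NR1H4 probe A_23_P25396: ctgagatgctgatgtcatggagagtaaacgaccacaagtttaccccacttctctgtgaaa
RXRG probe A_23_P23292: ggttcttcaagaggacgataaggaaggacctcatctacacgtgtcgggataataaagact
The array design places the NR1H4 probe on the plus strand at chr12:99459659-99459718 and the RXRG probe on the minus strand at chr1:162118017-162118076, both in human build hg17. The RXRA probes lie on the plus strand at chr9:134554548-134554607 (A_23_P219176) and chr9:134557717-134557776 (A_23_P423197), and the RXRB probe on the minus strand at chr6:33270164-33270223 (A_23_P59179). The files do not give the exon or UTR these positions fall in. G and C made up 45% of the bases of the NR1H4, RXRG and second RXRA probes, 48.3% of the first RXRA probe and 51.7% of the RXRB probe, against a median of 43.3% over the probes tested. The probe for NR1H4 cannot tell the transfected human transcript from the cells' own monkey transcript, nor one mutant from the other. Any signal from the monkey transcript would be counted with that of the human one, and whether there was any was not examined. In bulk samples the share of transfected cells and the amount of transcript per cell cannot be told apart.

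Levels are log2 values relative to the 75th percentile of the array, so that 0 is the brightness of that percentile. Tested were the probes that stood well above background throughout some group of 3 arrays, 26901 in number and among them 4 of the 5 described here. A change was called at an adjusted p under 0.05 in limma, with Benjamini-Hochberg adjustment over all tested probes of a comparison. An array had 61.6% to 79.8% of its spots well above background, and the 75th percentile lay between 1235 and 2105 intensity units. Only the S154A DMSO arrays lay at position 1 of a slide, and all 3 of them did. In every comparison that uses this group, position and group thus cannot be told apart. This includes CDCA against DMSO in S154A, the mutants in DMSO and the difference between the responses of the mutants to CDCA. Of the marker genes examined, 6 of 7 of kidney and mesenchymal lines had a tested probe, with VIM and KRT18 well above background on 12 of 12 arrays by at least 1 probe and PAX2 on 7. Tested probes were also found for 4 of 6 hepatocyte, 4 of 5 leukocyte and 3 of 4 intestinal marker genes, whereas the leukocyte marker PTPRC was well above background on 0 arrays. Monkey RNA met human probes throughout, and the match of each probe to the monkey transcript was not examined.

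The NR1H4 transcript was very bright in every sample, and its level overlapped between all 4 groups. Its probe was well above background on 12 of 12 arrays and ranked between 10 and 44 from the brightest of 43376 spots. It held 0.128% to 0.166% of the summed signal of an array. Processed intensities were 412472, 221600 and 351110 in the S154D CDCA arrays 1, 2 and 3, and 379200, 389804 and 227366 in the S154D DMSO arrays. They were 230776, 393670 and 346252 in the S154A CDCA arrays, and 422638, 380633 and 323056 in the S154A DMSO arrays. Intensity thus varied 1.91-fold between arrays, and each of the 3 dimmest NR1H4 spots lay on slide 3, in a different group each time. These 3 arrays were also the dimmest by their 75th percentile. The spot was not saturated on any array, with 0 saturated pixels, and its mean signal reached 25.6% to 55.7% of the saturation value. On all 12 arrays it was read from the scan at low gain and scaled up.

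**Figure D1:**
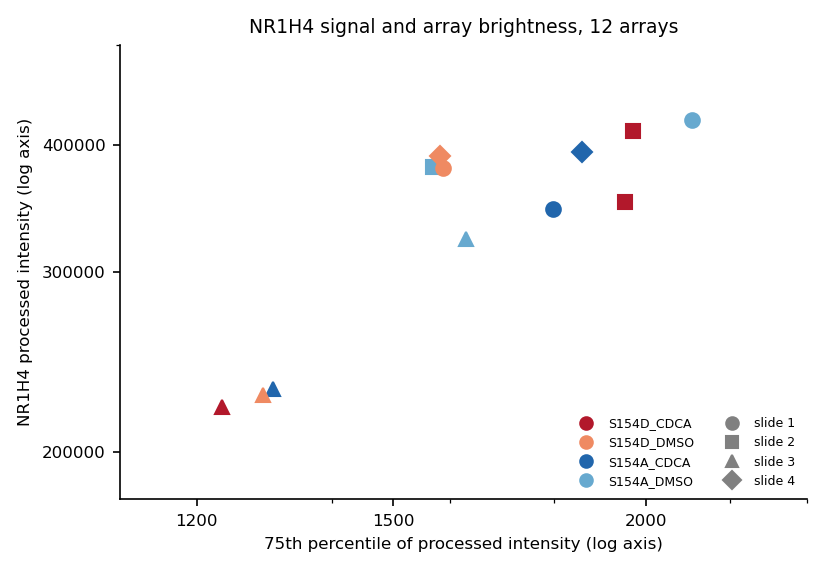
Processed intensity of the NR1H4 probe (vertical, log axis) against the 75th percentile of processed intensity of the same array (horizontal, log axis), 1 point per array, coloured by group and shaped by slide. The 3 arrays with NR1H4 intensities of 221600, 227366 and 230776 also have the lowest 75th percentiles, and all lie on slide 3.

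After scaling, the level of NR1H4 was 7.71, 7.49 and 7.49 in the S154D CDCA arrays, against 7.90, 7.94 and 7.46 in the S154D DMSO arrays. It was 7.46, 7.73 and 7.59 in the S154A CDCA arrays, against 7.65, 7.92 and 7.63 in the S154A DMSO arrays. Each group overlapped every other one. All 12 values lay within 1.40-fold of each other, and the spread within groups was 0.18 log2 units, below the median of 0.22 over the tested probes. Means were 7.56 ± 0.13 with S154D and CDCA, against 7.77 ± 0.27 with S154D and DMSO, and 7.59 ± 0.13 with S154A and CDCA, against 7.73 ± 0.16 with S154A and DMSO (SD, n = 3 each). The S154D CDCA mean was thus the lowest of the 4 and the S154D DMSO mean the highest, and no neighbours in the order of the means differed by more than their spread. By slide, the mean was 7.51 over the 4 arrays of slide 3 and 7.71, 7.71 and 7.84 on slides 1, 2 and 4.

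**Figure D2:**
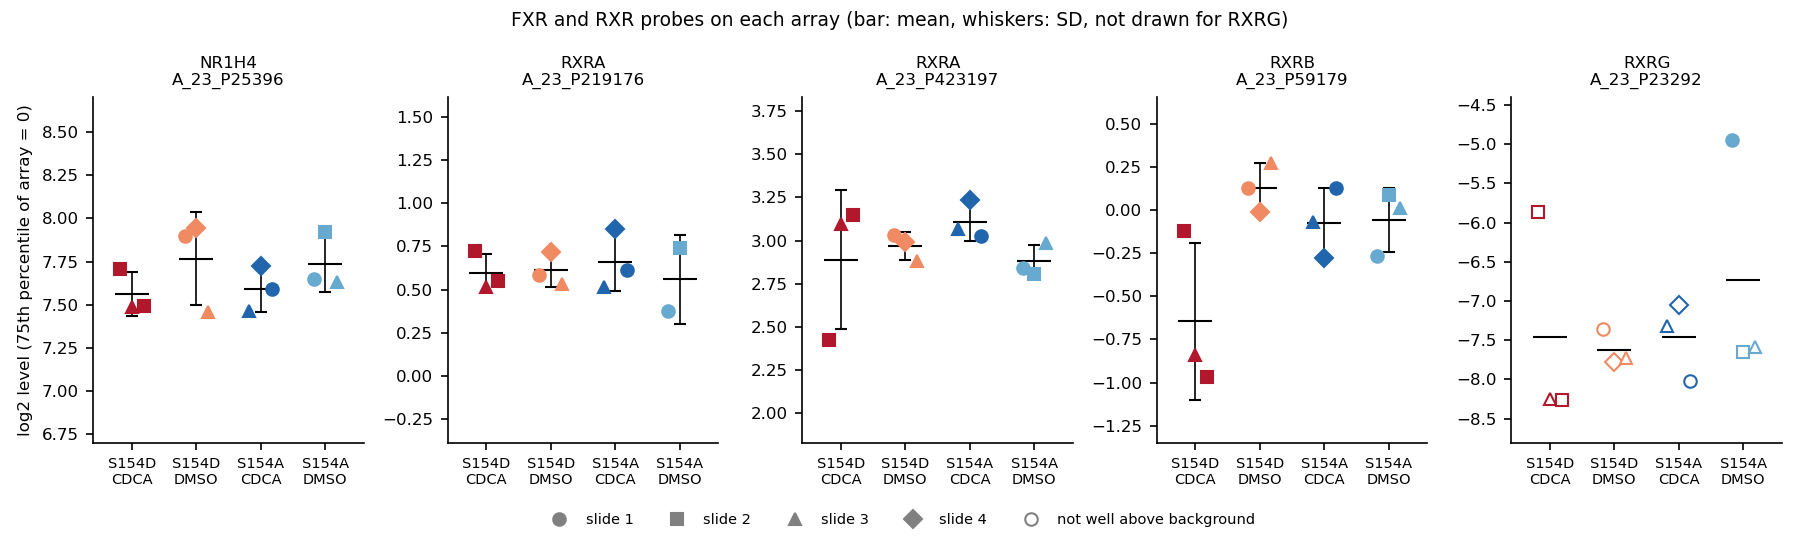
Level of each FXR and RXR probe on each array (log2, 75th percentile of the array at 0), by group, with the slide as the symbol. Bars are means and whiskers SD, and open symbols mark spots not well above background. The NR1H4 groups overlap, RXRB is low on 2 of the 3 S154D CDCA arrays, and RXRG is well above background on 1 array.

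The mutants were compared for their receptor transcript with each treatment. In CDCA the difference, S154D minus S154A, was -0.03 log2 units with a 95% interval of -0.37 to 0.31 (limma adjusted p = 0.919), and in DMSO it was 0.03, from -0.30 to 0.37 (limma adjusted p = 1.00). Averaged over both treatments it was 0.00, from -0.24 to 0.24, which in folds is 1.00, from 0.849 to 1.18. The sign of these 3 small differences turned under other scalings, to 0.03, -0.20 and -0.09 with quantile normalisation. With 3 arrays per group, this averaged interval leaves room for an NR1H4 signal between 0.849 and 1.18 times as bright with S154D. Within a treatment the intervals were wider, in folds 0.776 to 1.24 in CDCA and 0.810 to 1.29 in DMSO. How closely so bright a signal follows the amount of transcript was not examined.

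NR1H4 was lower with CDCA in both mutants on average, but no difference was called. It was -0.20 ± 0.15 with S154D (SE, limma adjusted p = 0.394), a fold of 0.868 with an interval of 0.687 to 1.10. With S154A it was -0.14 ± 0.15 (SE, limma adjusted p = 0.969), a fold of 0.906 with an interval of 0.718 to 1.14. The mean of both was -0.17, from -0.41 to 0.07 (limma adjusted p = 0.417). Over all tested probes 0.0409% were called in that mean and 0.0446% in the mean difference between the mutants. Slide 3 was the only slide with all 4 groups, with a single array of each. Within it, CDCA minus DMSO was 0.03 with S154D and -0.17 with S154A. The difference with S154D turned to 0.09 under quantile normalisation. The response with S154D minus that with S154A was -0.06, from -0.54 to 0.41, and turned to 0.23 under quantile normalisation.

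FXR targets were set beside the level of the receptor on the same arrays. FABP6, an ileal bile acid binding protein, was at -4.75, -6.02 and -7.20 in the S154D CDCA arrays, against -6.16, -6.01 and -6.29 in the S154D DMSO arrays. With S154A it was at 2.58, 2.53 and 2.45 in CDCA, against -3.47, -4.89 and -5.32 in DMSO. The 3 S154A CDCA arrays stood far above the other 9, which NR1H4 did not do on those arrays. The arrays give no level of receptor protein, and whether the receptor level bears on these targets was not tested. FGF19, the ileal hormone that restrains bile acid synthesis, was at -1.21 to -0.88 in the 3 S154A CDCA arrays by probe A_23_P52714 and not well above background on the other 9. By its other probe, A_23_P427587, FGF19 was at -1.31 to -0.91 in the S154A CDCA arrays, and outside that group it was well above background on S154D CDCA array 1 (-4.92) and S154D DMSO array 1 (-6.06). By A_23_P52714 it was at least 25.9-fold higher in S154A with CDCA than with DMSO (limma adjusted p = 2.52e-04), counted from the dimmest probe well above background on each DMSO array. This probe passed the filter on dim probes through the S154A CDCA group alone, and without a filter the limma adjusted p was 0.00175. OSTalpha, a subunit of the basolateral bile acid exporter, was at 0.97, 0.53 and 0.49 with S154D and CDCA, against 0.49, 0.65 and 0.25 with S154D and DMSO (A_24_P385732). With S154A it was at 3.17, 3.01 and 2.92 in CDCA, against 0.46, 0.76 and 0.22 in DMSO. Over the 12 arrays the level of NR1H4 spanned 0.49 log2 units, against 2.95 for OSTalpha. FABP6 was not well above background on 3 of the 6 S154D arrays, so no span is given for it.

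**Figure D3:**
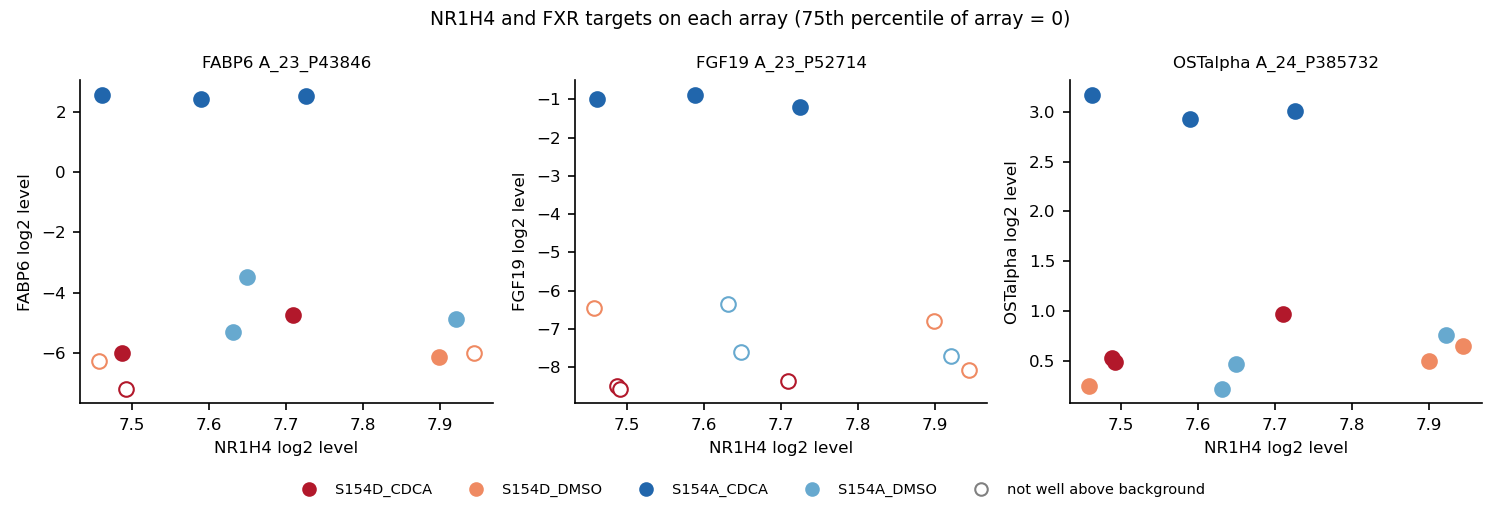
Level of FABP6, FGF19 and OSTalpha (vertical) against that of NR1H4 (horizontal) on each of the 12 arrays, in log2 units relative to the 75th percentile of the array, coloured by group, with open symbols where the target was not well above background. The 3 S154A CDCA arrays lie far above the others in each panel, while their NR1H4 levels of 7.46 to 7.73 lie among those of the other groups.

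Of 13 tested probes of 10 FXR target genes, 0 rose and 2 fell with CDCA in S154D, where 11.6% of all tested probes were called (7.04% higher and 4.52% lower). That background count of 3110 probes fell to 0 on leaving out S154D CDCA array 3, S154D DMSO array 1 or S154D DMSO array 3, and then 0 target probes were called too. In S154A 8 rose and 0 fell, where 0.119% of all tested probes were called. Those that rose were FABP6, both FGF19 probes, both OSTalpha probes, FETUB, a plasma protein of the cystatin family, and both probes of SDC1, the cell surface proteoglycan syndecan-1. Leaving out S154A CDCA array 1 reduced the 8 calls to 4, and a slide block reduced them to 3. Position on the slide cannot be told apart from treatment in that S154A comparison. Of the 13 probes, 3 had passed the filter through the S154A CDCA group alone, namely both FGF19 probes and OSTbeta. Over the 8 target probes well above background on all 12 arrays, 0 rose and 2 fell with S154D, and 5 rose and 0 fell with S154A. Their median difference was -0.09 with S154D and 1.14 with S154A, against -0.02 and -0.04 over all tested probes. The 2 that fell in S154D were SDC1 by A_24_P97129, at -0.66 ± 0.13 (SE, limma adjusted p = 0.0272), and FGFR4, the receptor of FGF19, at -0.75 ± 0.18 (SE, limma adjusted p = 0.0325). The other SDC1 probe gave -0.09. NR0B2, the gene of the repressor SHP, was well above background on 2 of 12 arrays and ABCB11, the canalicular bile salt pump, on 1, and neither was tested. OSTbeta, the partner subunit of OSTalpha, was well above background on all 3 S154A CDCA arrays, at -5.26, -4.68 and -5.09. In S154A DMSO it was well above background on 1 of 3 arrays. Its difference of 1.70 was not called (limma adjusted p = 0.881), rests on signals near background and is no measure of fold. These target genes were listed with earlier results of the same arrays known.

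RXRA was detected on all arrays by both probes, and no difference was called for either. By A_23_P423197 it was at 2.42, 3.09 and 3.15 in the S154D CDCA arrays, against 3.03, 2.99 and 2.88 in the S154D DMSO arrays. It was at 3.07, 3.24 and 3.03 in the S154A CDCA arrays, against 2.84, 2.81 and 2.99 in the S154A DMSO arrays. The S154D CDCA array 1 was the lowest of the 12, and with S154A every CDCA array was higher than every DMSO array. That separation was found in 3.6% of all tested probes in the same direction. All 3 S154A DMSO arrays lay at position 1 of their slides and the S154A CDCA arrays at positions 3 and 4, so position and treatment cannot be told apart there. The difference was 0.23 ± 0.17 with S154A (SE, limma adjusted p = 0.95), from -0.16 to 0.62. With S154D it was -0.08 ± 0.17 (SE, limma adjusted p = 0.792), from -0.47 to 0.31, and it turned to 0.15 without S154D CDCA array 1.

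The other RXRA probe, A_23_P219176, was at 0.72, 0.51 and 0.55 in the S154D CDCA arrays, against 0.59, 0.72 and 0.53 in the S154D DMSO arrays. It was at 0.52, 0.85 and 0.61 in the S154A CDCA arrays, against 0.38 and 0.74 in 2 S154A DMSO arrays. The scanner software had marked the spot of S154A DMSO array 3 as an outlier, with an intensity of 336 and a pixel variation of 73%, and it was left out of the fit. CDCA minus DMSO was -0.02 ± 0.14 with S154D and 0.10 ± 0.15 with S154A (SE), and the groups overlapped. With the marked spot kept, the difference with S154A was 1.05 and still not called (limma adjusted p = 0.935), so that 1 spot moved the value by more than any other choice tried. S154D minus S154A was -0.07 in CDCA and 0.05 in DMSO by this probe, and -0.22 and 0.09 by A_23_P423197. Both probes thus had intervals that included 0 in the 4 comparisons between groups. Their levels did not move together over the 11 arrays with both values (Pearson r = -0.04, a description).

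RXRB was lower with CDCA in cells given S154D, the 1 change called among the FXR and RXR probes. Its level was -0.12, -0.84 and -0.97 in the S154D CDCA arrays, against 0.12, -0.01 and 0.27 in the S154D DMSO arrays. It was -0.07, -0.28 and 0.13 in the S154A CDCA arrays, against -0.27, 0.08 and 0.01 in the S154A DMSO arrays. All 3 S154D CDCA arrays were below every S154D DMSO array, but 2 of them were far lower than the third, which lay within the range of the S154A arrays. The low values had processed intensities of 689 and 996, and that of S154D CDCA array 1 was 1808. The difference was -0.77 ± 0.21 (SE, limma adjusted p = 0.0442), a fold of 0.585 with an interval of 0.422 to 0.811. In that comparison 11.6% of all tested probes were called, 4.52% lower, and in 14.7% every CDCA array was below every DMSO array.

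The call for RXRB was near the threshold and was lost under 17 of the 25 other settings that gave a test. With slide as a block the difference was -1.05 (limma adjusted p = 0.132). Within slide 3 it was -1.12, from a single pair of arrays, S154D CDCA array 2 and S154D DMSO array 3. After a correction for the G and C content of probes it was -0.51 (limma adjusted p = 0.224). The number of all tested probes called in this comparison was 3110, and 0 with slide as a block or with that correction. Leaving out S154D CDCA array 2 or 3 gave -0.67 and -0.61 (limma adjusted p = 0.107 and 0.155), and leaving out S154D CDCA array 1 gave -1.03 (limma adjusted p = 0.0158). The call was also lost without S154D DMSO array 1, 2 or 3, S154A CDCA array 1 or any 1 of the S154A DMSO arrays, at limma adjusted p of 0.0547 to 0.145. The 2 low arrays lay at position 4 of slides 2 and 3. The other 2 arrays at position 4 had 0.12 and -0.28, and the part of position in the result was not tested.

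With S154A, RXRB differed by -0.02 ± 0.21 between CDCA and DMSO (SE, limma adjusted p = 0.997), from -0.49 to 0.46, and the sign turned with slide as a block, to 0.16. The response with S154D minus that with S154A was -0.76 ± 0.30 (SE, limma adjusted p = 0.176), so the responses of the mutants were not shown to differ, where 0.219% of all tested probes were called. S154D minus S154A was -0.57 ± 0.21 in CDCA (SE, limma adjusted p = 0.151) and 0.18 ± 0.21 in DMSO (SE, limma adjusted p = 1.00). Without S154D CDCA array 1 the difference in CDCA was -0.83 and was called (limma adjusted p = 0.0424). Over all tested probes 0.346% were called in that comparison and 0% in DMSO. In DMSO 1179 probes, 4.38% of those tested, had an unadjusted limma p under 0.05.

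**Figure D4:**
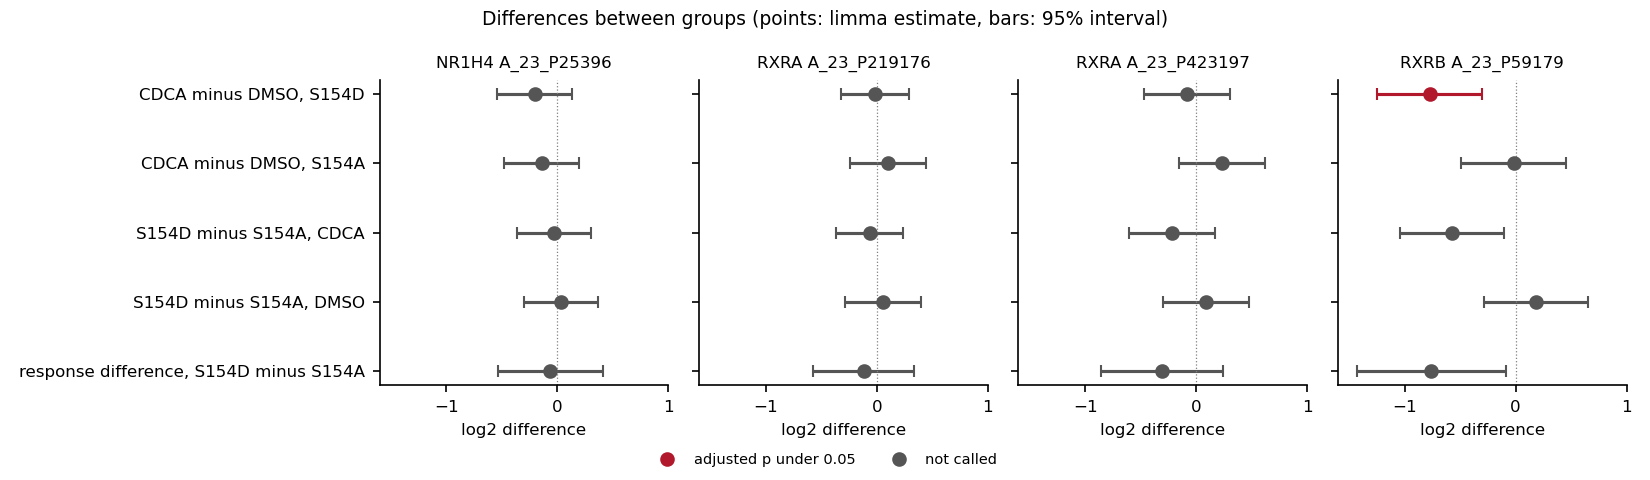
Log2 differences of the 4 tested FXR and RXR probes in the 4 comparisons between groups and in the difference of the responses to CDCA, as limma estimates (points) with 95% intervals (bars). The RXRB difference of -0.77 between CDCA and DMSO with S154D is called, and the intervals of NR1H4 and of both RXRA probes include 0 throughout. The RXRB intervals for S154D minus S154A in CDCA and for the response difference exclude 0, but neither is called after adjustment.

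RXRG was close to background. Its probe was well above background on 1 of 12 arrays, S154A DMSO array 1, with an intensity of 68.3. The intensities were 33.9, 4.06 and 6.35 in the S154D CDCA arrays, against 9.67, 7.23 and 6.10 in the S154D DMSO arrays. They were 8.23, 14.0 and 6.93 in the S154A CDCA arrays, against 68.3, 7.82 and 8.45 in the S154A DMSO arrays. S154A DMSO array 1 and S154D CDCA array 1 also had the largest shares of all spots well above background, 79.8% and 73.4%. The RXRG probe was not tested and no fold is given.

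Nuclear receptors that also pair with RXR, and so share the partner with FXR, had 20 tested probes of 12 genes. With CDCA in S154D 1 probe was called higher and 1 lower, 2 of 20 beside 11.6% of all tested probes. With S154A 0 were called, beside 0.119% of all tested probes. Both calls in S154D were lost on leaving out S154D CDCA array 2 or 3, S154A CDCA array 1 or any 1 of the DMSO arrays of either mutant, and the count was 0 to 3 over all settings. The orphan receptor NR4A1 was 0.45 ± 0.13 higher by A_23_P128230 (SE, limma adjusted p = 0.0479), while its other probe gave -0.39. The thyroid hormone receptor THRA was lower by A_24_P262407, at -0.63 ± 0.16 (SE, limma adjusted p = 0.0382), while its other probe gave -0.01. The retinoic acid receptor RARA had the smallest p of the list with S154A, at 1.08 by A_32_P5251 (limma adjusted p = 0.588). The median of the list was -0.23 with S154D and 0.00 with S154A, against -0.02 and -0.04 over all tested probes.

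Enzymes reported to modify FXR or RXR proteins had 19 tested probes of 13 genes, and 0 rose and 2 fell with CDCA in S154D, where 11.6% of all tested probes were called and 4.52% were lower. The count was 0 to 3 over all settings and 0 without S154D CDCA array 2 or 3, S154D DMSO array 1 or 3 or any 1 of the S154A DMSO arrays. The protein kinase PRKCA was at -0.62 ± 0.17 by A_23_P55099 (SE, limma adjusted p = 0.045), while its other probe gave 0.21. The arginine methyltransferase PRMT1 was at -0.40 ± 0.10 (SE, limma adjusted p = 0.0402). With S154A 0 were called, beside 0.119% of all tested probes. Between the mutants 0 were called in CDCA and 0 in DMSO, beside 0.346% and 0% of all tested probes. The deacetylase SIRT1 had the smallest p of the list between the mutants in CDCA, with a difference of 0.44 (limma adjusted p = 0.0956).

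The genes whose pattern over the 12 arrays was most like that of each receptor were found by Pearson correlation among 13394 probes with gene symbols. For NR1H4 they were COL23A1 (r = 0.95), GRN (0.94), SCAND1 (0.93), LMNA (0.92) and COMTD1 (0.92). After the correction for G and C content the correlation was 0.81 for COL23A1, -0.23 for SCAND1 and 0.20 to 0.43 for the others. For RXRA by A_23_P423197 they included HES1 and BTBD7 (r = 0.93 each), which were at 0.94 and 0.93 after the correction. For RXRB they were CHDH, a choline dehydrogenase, LRPAP1, a chaperone of lipoprotein receptors, and MIF4GD (r = 0.99 each), at 0.96 to 0.99 after the correction. These correlations are descriptions over the same arrays, whose points share slides and brightness. CHDH, LRPAP1 and MIF4GD had CDCA minus DMSO differences of -0.82, -0.53 and -0.53 with S154D and of -0.04, -0.04 and 0.03 with S154A. Their levels were low on the same S154D CDCA arrays 2 and 3 as that of RXRB. They were picked for their likeness to RXRB on these same arrays. Their values thus follow from that choice and are no separate evidence of a change in RXRB.

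**Figure D5:**
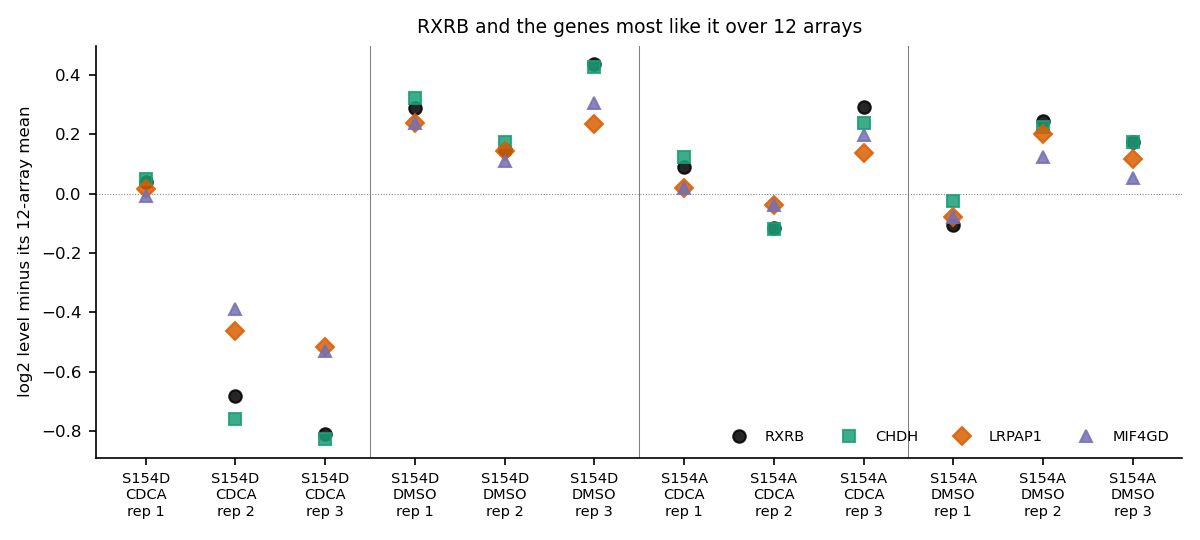
Level of RXRB and of CHDH, LRPAP1 and MIF4GD, the 3 genes most like it, on each of the 12 arrays, in log2 units minus the mean of the gene over the 12 arrays. All 4 are lowest on S154D CDCA arrays 2 and 3 and close to their mean on S154D CDCA array 1. The 3 genes were chosen by this likeness to RXRB on the same arrays.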

How the data were processed

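Per the file headers, the deposited scanner files were made with Agilent Feature Extraction 9.5.3.1, whereas the submitters' processing notes name version 12. The processed intensity, background-subtracted and detrended within each array by that software, is the value the authors deposited, and the deposited series table equals it on all 12 arrays. Probe positions follow human build hg17, per the file headers.

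Outlier spots, which the software had marked (66 to 196 on an array), were taken out before averaging spots per probe. Levels are log2 of the processed intensity minus log2 of the 75th percentile of non-control spots. Group means were estimated from all 12 arrays in limma 3.58.1 (R 4.3.3, package data.table, version 1.17.8), with Benjamini-Hochberg adjustment over 26901 probes in each of 7 comparisons, two-sided. The procedure was tested on simulated data with independent noise and no slide or position effects, so how it behaves under such effects was not tested. Slides and positions were read from the names of the scanner files. Other settings were normexp with an offset of 50, quantile normalisation, no scaling, other filters, slide or replicate number as a block, a loess correction for probe G and C content with a span of 0.5, and leaving out arrays or slides.

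The rule for naming genes took every FXR and RXR probe, the 5 genes most like NR1H4 and 3 most like each RXR gene, 6 FXR targets, and of the gene lists those called or among the 4 smallest p of a comparison, of which some that were not called are left out. Of the genes most like RXRA, 1 is not reported here. The genes described and the lists were chosen with earlier results of these data known. Keeping the marked spots was added after the data were seen. Deviations from the group means correlated at -0.38 to 0.53 between same-numbered arrays of different groups (18 pairs, median 0.09, 9 above 0.1). Between differently numbered arrays it was -0.51 to 0.53 (36 pairs, median -0.06, 17 above 0.1). As these ranges were alike, replicate numbers were not taken as pairs. Between arrays of different groups on the same slide the correlation was -0.43 to 0.53, and most of these pairs were above 0.1. The main fit had no term for slide, so arrays that shared a slide may not be independent in it. The number of arrays, 3 per group, limits the precision.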

Additional observations from a re-analysis of the deposited data

Results flagged for a closer look

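The responses to CDCA differed between the mutants for 6 target probes by the test of the difference itself, S154D minus S154A, in log2 units with limma adjusted p. The values were -6.92 for FABP6 (A_23_P43846, adjusted p = 0.0194), -7.54 for FGF19 (A_23_P52714, adjusted p = 0.00368) and -2.36 for OSTalpha (A_24_P385732, adjusted p = 0.0125). SDC1 gave -1.23 (A_23_P16944, adjusted p = 0.032) and -1.79 (A_24_P97129, adjusted p = 0.0125), and FETUB gave -1.80 (A_23_P144126, adjusted p = 0.0305). These calls depended on the setting: 0 target probes were called with slide as a block, 1 without a filter, 1 to 6 on leaving out 1 array (1 without S154D DMSO array 1) and 0 to 7 over all settings. The FGF19 probe was well above background in the S154A CDCA group alone and passed the filter through it, and its adjusted p was 0.0147 without a filter. The FABP6 and FGF19 values depend on signals near background in the other groups and are no measure of fold. Over all tested probes 0.219% were called in this comparison. It uses the S154A DMSO arrays, so position on the slide cannot be told apart from group in it. Among the FXR and RXR probes 0 were called, and the difference for NR1H4 on the same arrays was -0.06, from -0.54 to 0.41.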

How the results depend on the processing

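Of the FXR and RXR probes, none but RXRB was called under any setting, and every sign change below is of a value that was not called. In the comparison of CDCA with DMSO in S154D, the count of FXR and RXR probes called was 1, and 0 with the unscaled series table, slide as a block, the correction for probe G and C content, no filter, the replicate block, only the groups compared, without slide 2 and without slide 4. The cause was not tested. Leaving out single arrays gave counts of 0 to 1 there and of 0 to 1 for S154D minus S154A in CDCA. With the replicate block RXRB was at -0.77 in S154D (limma adjusted p = 0.0679), and the probes called in that comparison numbered 1014 against 3110.
Without scaling, RXRA by A_23_P219176 gave -0.050 for CDCA minus DMSO in S154A, 0.17 for CDCA minus DMSO in S154D, -0.24 for S154D minus S154A in DMSO and 0.22 for the response difference. RXRA by A_23_P423197 then gave 0.10 for CDCA minus DMSO in S154D and -0.15 for S154D minus S154A in DMSO. NR1H4 then gave -0.21 for S154D minus S154A in DMSO, 0.0096 for S154D minus S154A in CDCA, 0.22 for the response difference and -0.10 for the mean of S154D minus S154A. RXRB then gave -0.058 for S154D minus S154A in DMSO. With slide as a block, RXRB gave 0.16 for CDCA minus DMSO in S154A. RXRA by A_23_P423197 then gave 0.086 for CDCA minus DMSO in S154D and -0.016 for S154D minus S154A in DMSO. NR1H4 then gave -0.0099 for the mean of S154D minus S154A. With the correction for G and C content, RXRB gave 0.054 for CDCA minus DMSO in S154A. RXRA by A_23_P219176 then gave 0.17 for CDCA minus DMSO in S154D and 0.019 for S154D minus S154A in CDCA. RXRA by A_23_P423197 then gave 0.0057 for CDCA minus DMSO in S154D. NR1H4 then gave -0.0013 for the mean of S154D minus S154A. Without slide 2, RXRB gave 0.054 for CDCA minus DMSO in S154A. RXRA by A_23_P423197 then gave 0.13 for CDCA minus DMSO in S154D. Without slide 4, RXRB gave 0.085 for CDCA minus DMSO in S154A. RXRA by A_23_P219176 then gave 0.036 for CDCA minus DMSO in S154D, 0.029 for S154D minus S154A in CDCA and 0.028 for the response difference. NR1H4 then gave -0.055 for S154D minus S154A in DMSO, 0.038 for S154D minus S154A in CDCA, 0.093 for the response difference and -0.0090 for the mean of S154D minus S154A. With normexp, RXRA by A_23_P219176 gave 0.056 for CDCA minus DMSO in S154D. NR1H4 then gave -0.041 for S154D minus S154A in DMSO and -0.056 for the mean of S154D minus S154A. With quantile normalisation, NR1H4 gave 0.086 for CDCA minus DMSO in S154D, -0.20 for S154D minus S154A in DMSO, 0.031 for S154D minus S154A in CDCA, 0.23 for the response difference and -0.086 for the mean of S154D minus S154A. Within slide 3, NR1H4 gave 0.030 for CDCA minus DMSO in S154D, -0.17 for S154D minus S154A in DMSO and 0.20 for the response difference. Within slide 1, NR1H4 gave 0.25 for S154D minus S154A in DMSO. These values within a slide compare single arrays. Leaving out 1 array at a time turned the sign of some values. RXRA by A_23_P219176 then ranged over -0.079 to 0.28 for CDCA minus DMSO in S154A, -0.080 to 0.036 for CDCA minus DMSO in S154D, -0.13 to 0.23 for S154D minus S154A in DMSO, -0.14 to 0.029 for S154D minus S154A in CDCA and -0.30 to 0.063 for the response difference. RXRB then ranged over -0.12 to 0.085 for CDCA minus DMSO in S154A. RXRA by A_23_P423197 then ranged over -0.21 to 0.15 for CDCA minus DMSO in S154D and -0.35 to 0.011 for S154D minus S154A in CDCA. NR1H4 then ranged over -0.055 to 0.19 for S154D minus S154A in DMSO, -0.10 to 0.038 for S154D minus S154A in CDCA, -0.22 to 0.026 for the response difference and -0.042 to 0.079 for the mean of S154D minus S154A.
Over all tested probes, the count called between CDCA and DMSO in S154D was 3110, and 1 without scaling, 11 without slide 2 and 0 with no filter, slide as a block, the correction for G and C content or only the groups compared. It was also 0 without S154D CDCA array 3, S154D DMSO array 1 or S154D DMSO array 3, 1171 without S154D CDCA array 2, and 1757 to 2053 without S154A CDCA array 1, S154A DMSO array 1 or S154A DMSO array 3. With S154A it was 32, and 9 to 18 under the settings that moved it by more than 1.5 times. Between the mutants in CDCA it was 93, and 4 to 453 over all settings, and for the response difference 59, and 0 to 162.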
